A study of Mus musculus with 15 samples.

Results

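The genes that write, erase and read DNA methylation were followed in quadriceps muscle of mouse offspring whose parents differed in diet and exercise. They were 9 genes, taken by symbol from the 50686 genes of the deposited table: the methyltransferases Dnmt1, Dnmt3a and Dnmt3b, the cofactor Uhrf1, the oxygenases Tet1, Tet2 and Tet3, and the methyl-CpG binding proteins Mbd1 and Mbd2. All 9 were found, and 7 of them had the mean of at least 10 normalized counts that was asked for before a test, Tet1 and Uhrf1 being below it. A normalized count is a read count divided by a factor for the library's size. All animals were C57BL/6, and 15 libraries of total RNA, 1 per sample, formed 5 groups of 3. In the control group (NC-Sed) both parents ate normal chow and the dam's running wheel was locked during pregnancy. In the maternal groups the dam ate a 60% high-fat diet for 6 weeks from 8 weeks of age, was mated with a lean male of 14 weeks, and then had a locked wheel (M-HF-Sed) or a free one (M-HF-Ex). In the paternal groups the sire ate that diet for 6 weeks from the same age, and his lean mate, 14 weeks old, had a locked wheel (P-HF-Sed) or a free one (P-HF-Ex). Every offspring ate chow and was sedentary from the day after birth, and muscle was taken at 10 months of age. No label used here gives the sex or litter of an offspring, so p-values measure only how far these samples differ. The title of each sample holds a code of unstated meaning. Its first part was the same for all 3 M-HF-Sed libraries and was shared only by M-HF-Ex replicate 3. Group and title code therefore cannot be told apart in M-HF-Sed minus NC-Sed. In M-HF-Ex minus M-HF-Sed only M-HF-Ex replicate 3 separates them. One control group served both arms, so the comparisons with it share 3 libraries, and so do comparisons that use the same sedentary group.

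Methylation of cytosine in CpG pairs is copied to the new strand after DNA replication by DNMT1, which UHRF1 guides to half-methylated sites. DNMT3A and DNMT3B set methylation at sites that carry none. The TET enzymes oxidise methylcytosine, using oxygen and 2-oxoglutarate, and so start its removal. MBD1 and MBD2 bind methylated CpG and recruit repressors, MBD2 as part of the NuRD complex. Muscle fibres no longer divide, so copying of methylation concerns mainly the dividing cells between them. The labels name the parents' obesity and exercise in pregnancy as the subject, and the comparisons asked whether mRNA levels of these genes differed in the grown offspring.

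The libraries held 18457663 to 26981745 reads. Markers of muscle fibres were present in every library (8 of 8 genes, summed at 177500 to 239200 CPM, counts scaled to the library total). Summed levels of 12 liver genes were 3155 CPM in M-HF-Sed replicate 2, 378 in M-HF-Sed replicate 3, 189 in P-HF-Sed replicate 1 and 125 in NC-Sed replicate 2, and 0.368 to 25 in the other 11. All 4 libraries with liver transcripts came from sedentary groups. Proliferation genes (12 listed, 5 with a read in every library) summed to 20.5 to 32.9 CPM. Satellite cell markers (4 genes) stood at 37.2 to 52.3, those of macrophages and leukocytes (8 genes) at 13.2 to 37.9, endothelial markers (5 genes) at 293 to 442 and adipocyte markers (4 genes) at 122 to 230 CPM. Fibroblast markers (4 genes) were 1179 in M-HF-Ex replicate 3 and 163 to 339 in the other libraries. Slow fibre markers (7 genes) spread from 619 to 5165, Schwann cell markers (5 genes) from 111 to 323 and erythroid markers (3 genes) from 26.9 to 104 CPM. In whole muscle, fewer cells of a type and less RNA per cell cannot be told apart.

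The start sites of these genes differ in CpG content, and the windows of the 3 genes whose levels moved together or oppositely over the libraries are printed here. RefSeq windows (GRCm38.p6) of 250 bases before a start matched 7 of the 9 genes, with 12 windows in all, of which 6 held no annotated exon. They are written 5′ to 3′ on the gene's strand in lower case, with each CpG in capitals. The windows lie at chr9:20952980-20953229 (minus strand, the second of 3 Dnmt1 starts), chr12:3806730-3806979 (plus strand, the first of 3 Dnmt3a starts) and chr3:133544391-133544640 (minus strand, Tet2).
Dnmt1: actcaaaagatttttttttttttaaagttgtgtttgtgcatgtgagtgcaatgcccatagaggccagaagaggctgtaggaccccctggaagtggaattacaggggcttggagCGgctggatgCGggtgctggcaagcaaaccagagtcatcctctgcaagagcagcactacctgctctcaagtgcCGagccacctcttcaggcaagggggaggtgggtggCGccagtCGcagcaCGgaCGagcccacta
Dnmt3a: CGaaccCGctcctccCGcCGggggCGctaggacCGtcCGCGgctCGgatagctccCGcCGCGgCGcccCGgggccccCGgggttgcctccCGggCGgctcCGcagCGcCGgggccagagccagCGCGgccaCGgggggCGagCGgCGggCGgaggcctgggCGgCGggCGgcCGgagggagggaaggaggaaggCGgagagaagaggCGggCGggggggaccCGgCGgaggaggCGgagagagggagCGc
Tet2: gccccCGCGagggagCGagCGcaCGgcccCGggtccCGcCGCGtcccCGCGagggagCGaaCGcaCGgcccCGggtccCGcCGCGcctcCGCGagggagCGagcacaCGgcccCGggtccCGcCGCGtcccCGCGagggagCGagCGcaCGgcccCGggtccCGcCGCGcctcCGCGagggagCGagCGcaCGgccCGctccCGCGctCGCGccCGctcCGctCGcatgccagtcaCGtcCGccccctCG
The Tet2 window held 51 CpG pairs, and 0.067% of 32851 such windows in the table held as many. The Dnmt3a window held 38, matched or passed by 1.88% of windows. The printed Dnmt1 window held 7, matched or passed by 46.3%, close to the median of 6 over all windows. CpG content also differed between the starts of a gene. The other Dnmt1 windows held 2 (start 1) and 26 (start 3), the latter matched or passed by 9.59% of windows. The other Dnmt3a windows held 40 (start 2) and 15 (start 3). Of these, all but Dnmt1 start 1 overlapped an annotated exon. The printed windows therefore do not rank Dnmt1 and Dnmt3a as genes by CpG content. Shifted by 42 bases along itself, the Tet2 window matched at 77.9% of 208 positions, so that much of it is a short sequence in tandem copies. The best such match for any shift of 20 to 100 bases was 47.1% in the printed Dnmt3a window and 34% in the printed Dnmt1 window. The GC box GGGCGG, searched on both strands, was found in 10 of the 12 windows of these genes, all but the first and second Dnmt1 starts, and in 32.7% of all windows. These matches describe the letters of the windows and no binding was measured.

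Levels were compared between genes per length, as RPKM, the reads of a gene scaled to its exon length in kilobases and to the total of its library. By this measure Mbd2 was the highest of the 9 in 15 of 15 libraries, at 9.01 ± 1.57 (SD, n = 15). Dnmt3a followed at 3.14 ± 0.33, Mbd1 at 2.84 ± 0.329, Tet3 at 1.86 ± 0.237, Dnmt1 at 1.71 ± 0.193 and Tet2 at 1.65 ± 0.463. Dnmt3b was at 0.215 ± 0.0709, Uhrf1 at 0.0569 ± 0.0559 and Tet1 at 0.019 ± 0.00643. The median of 13482 tested genes with an exon length was 2.26, so Mbd2, Dnmt3a and Mbd1 lay above it and the other 6 below. Mbd2 exceeded 79.3% of those genes and Dnmt3b exceeded 7.6%. Of the summed signal of the methyltransferases, Dnmt3a made up 62% (range 58.6% to 64.9% over the libraries), Dnmt1 33.7% and Dnmt3b 4.27%. Dnmt3a exceeded Dnmt1 in 15 of 15 libraries. Of the summed signal of the TET genes, Tet3 made up 53.4%, Tet2 46% and Tet1 0.543%. The order of Tet2 and Tet3 was not stable: Tet2 was the higher in 4 of 15 libraries, which came from 4 different groups.

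**Figure D1:**
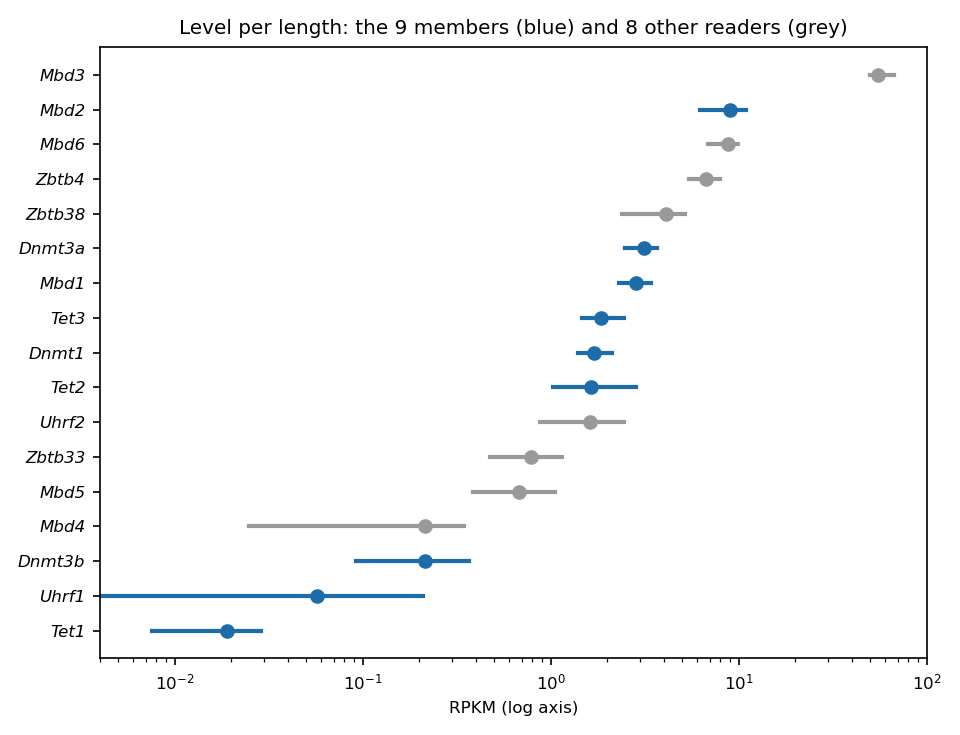
Level per length of the 9 genes (blue) and of 8 other genes listed with the readers (grey), in RPKM on a log axis. Points are means over 15 libraries and lines run from the lowest to the highest library, with the line of Uhrf1 reaching the left edge because 1 library had no read. Mbd2 leads the 9 genes at 9.01, with Tet1 lowest at 0.019 and Mbd3 above all at 55.4.

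Other genes listed with the readers stood on both sides of them on the same scale. Whether each of their products binds methylated CpG was not measured. Mbd3, the NuRD subunit closest to MBD2 in sequence, was at 55.4 RPKM. Uhrf2, the relative of Uhrf1, was at 1.63, where Uhrf1 itself was at 0.0569. Dnmt3l, a partner of the DNMT3 enzymes in germ cells, had 10 reads in all libraries together, and Dppa3, which keeps UHRF1 out of the oocyte nucleus, had 0.

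Among the writers, Dnmt3a (ENSMUSG00000020661.15, chr12:3806007-3914443, plus strand) had the most reads, 828 to 1508 per library. Its normalized counts were 1447, 1337 and 1070 in NC-Sed replicates 1 to 3, 1093, 1306 and 1372 in M-HF-Sed, and 980.2, 1166 and 933 in M-HF-Ex. In the paternal groups they were 1214, 1218 and 1237 (P-HF-Sed) and 1249, 1048 and 1015 (P-HF-Ex). The group means were 1285 ± 194 (SD, n = 3), 1257 ± 146, 1026 ± 123, 1223 ± 12.6 and 1104 ± 126 in that order. Both exercised groups had the lowest means, but each shared part of its range with its sedentary group. The 3 P-HF-Sed libraries were the closest together of the 5 groups.

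Dnmt1 (ENSMUSG00000004099.16, chr9:20907209-20959888, minus strand) had 210 to 389 reads per library. Its normalized counts were 323, 283 and 271 in NC-Sed, 295, 342 and 386 in M-HF-Sed and 214, 279 and 266 in M-HF-Ex. They were 262, 286 and 286 in P-HF-Sed and 283, 264 and 225 in P-HF-Ex. The 2 highest values of the 15 were those of M-HF-Sed replicates 3 and 2, both with liver transcripts. All M-HF-Ex values lay below all M-HF-Sed values, whereas every other pair of groups overlapped in the comparisons made. Means were 341 ± 45.2 in M-HF-Sed, 292 ± 27.5 in NC-Sed, 278 ± 13.7 in P-HF-Sed, 257 ± 29.4 in P-HF-Ex and 253 ± 34.6 in M-HF-Ex (SD, n = 3 each). In this order only the step from M-HF-Sed to NC-Sed, 48.8 counts, exceeded the larger SD of its neighbours.

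Dnmt3b (ENSMUSG00000027478.15, chr2:153649450-153687730, plus strand) was low, with 10 to 38 reads per library. Normalized counts were 32.5, 28.3 and 20.5 in NC-Sed, 30.7, 25.5 and 19.4 in M-HF-Sed and 38.7, 29.1 and 18 in M-HF-Ex. The paternal groups had 27.6, 12.9 and 25.6 (P-HF-Sed) and 11.4, 18.9 and 28.9 (P-HF-Ex). The 5 groups overlapped throughout, and the means, from 28.6 ± 10.3 in M-HF-Ex down to 19.7 ± 8.79 in P-HF-Ex, were within 1 SD of each other at every step of their order.

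Uhrf1 (ENSMUSG00000001228.14, chr17:56303321-56323486, plus strand) had 81 reads in all libraries together, from 0 to 18 in each. The control libraries had 3, 0 and 5 reads, M-HF-Sed 3, 5 and 6, M-HF-Ex 9, 1 and 18, P-HF-Sed 10, 1 and 10, and P-HF-Ex 1, 1 and 8. The 0 in NC-Sed replicate 2 allows up to 0.129 CPM (3 counts, counting error only). Within M-HF-Ex the gene ran from 1 to 18 reads, nearly the range of all 15 libraries, so no order of the groups can be read from it.

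Among the erasers, Tet2 (ENSMUSG00000040943.12, chr3:133463679-133545139, minus strand) varied more than most genes of its level. Normalized counts were 540, 406 and 623 in NC-Sed, 564, 577 and 515 in M-HF-Sed and 709, 686 and 697 in M-HF-Ex. They were 960.5, 604 and 530 in P-HF-Sed and 437, 757 and 650.5 in P-HF-Ex. The M-HF-Ex libraries were close together and above every NC-Sed and M-HF-Sed library. The P-HF-Sed mean, 698 ± 230 (SD, n = 3), was as high as that of M-HF-Ex, 698 ± 11.7, but rested on replicate 1, the highest of the 15 and 1 of the 4 with liver transcripts. P-HF-Ex stood at 615 ± 163, M-HF-Sed at 552 ± 32.6 and NC-Sed at 523 ± 109, and no neighbours in this order differed beyond their spread. The SD within groups on the log2 scale was 0.31 for Tet2, against a median of 0.18 for 2235 genes of similar level, of which 87.5% had a lower one.

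Tet3 (ENSMUSG00000034832.15, chr6:83362373-83459084, minus strand) was even across the groups. It had normalized counts of 726, 756 and 610 in NC-Sed, 811, 759 and 631 in M-HF-Sed, 604, 706 and 925 in M-HF-Ex, 620, 624 and 779 in P-HF-Sed and 595, 704 and 655 in P-HF-Ex. The highest, 925, was M-HF-Ex replicate 3, the library with the most fibroblast marker reads, a relation that was not tested. Group means ran from 651 ± 54.9 (P-HF-Ex) to 745 ± 164 (M-HF-Ex; SD, n = 3) and all neighbours overlapped.

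Tet1 (ENSMUSG00000047146.16, chr10:62804570-62908996, minus strand) had 100 reads in all, 3 to 11 in each library. The reads were 9, 7 and 9 in NC-Sed, 6, 5 and 3 in M-HF-Sed, 9, 5 and 6 in M-HF-Ex, 8, 11 and 9 in P-HF-Sed and 5, 5 and 3 in P-HF-Ex. As normalized counts the means were 8.08 ± 1.04 in NC-Sed, 4.41 ± 1.17 in M-HF-Sed, 7.33 ± 1.62 in M-HF-Ex, 8.29 ± 1.01 in P-HF-Sed and 4.7 ± 1.87 in P-HF-Ex (SD, n = 3). M-HF-Sed and P-HF-Ex were the low groups, and neither overlapped with NC-Sed, where 8.02% and 20.4% of all genes tested did not overlap in these comparisons. Over all 15 libraries the CV was 31.8%, where counting such few reads gives 38.7% by itself. The part of counting error in the separation of these groups was not tested.

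Of the readers, Mbd2 (ENSMUSG00000024513.16, chromosome 18) had normalized counts of 711, 467 and 724 in NC-Sed, 598, 628 and 500.3 in M-HF-Sed and 665, 771 and 614 in M-HF-Ex. The paternal groups had 700.4, 770.0 and 550.3 (P-HF-Sed) and 698, 631 and 699 (P-HF-Ex). The lowest 2 libraries were NC-Sed replicate 2 and M-HF-Sed replicate 3. Means ran from 575 ± 66.6 in M-HF-Sed to 683 ± 80.2 in M-HF-Ex (SD, n = 3).

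Mbd1 (ENSMUSG00000024561.8, chromosome 18) had 395, 514 and 423 normalized counts in NC-Sed, 384, 407 and 565 in M-HF-Sed, 411, 482 and 429 in M-HF-Ex, 307, 408 and 443 in P-HF-Sed and 406, 455 and 403 in P-HF-Ex. Its 2 highest libraries were the 2 lowest of Mbd2. These libraries also had the fewest genes with a read, 17699 and 17581 against 19062 to 20771 in the other 13. Over all genes tested, 9.16% had both of these libraries above the other 13, as Mbd1 did, and 13.9% had both below, as Mbd2 did. Group means of Mbd1 ran from 386 ± 70.4 (P-HF-Sed) to 452 ± 98.7 (M-HF-Sed; SD, n = 3).

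**Figure D2:**
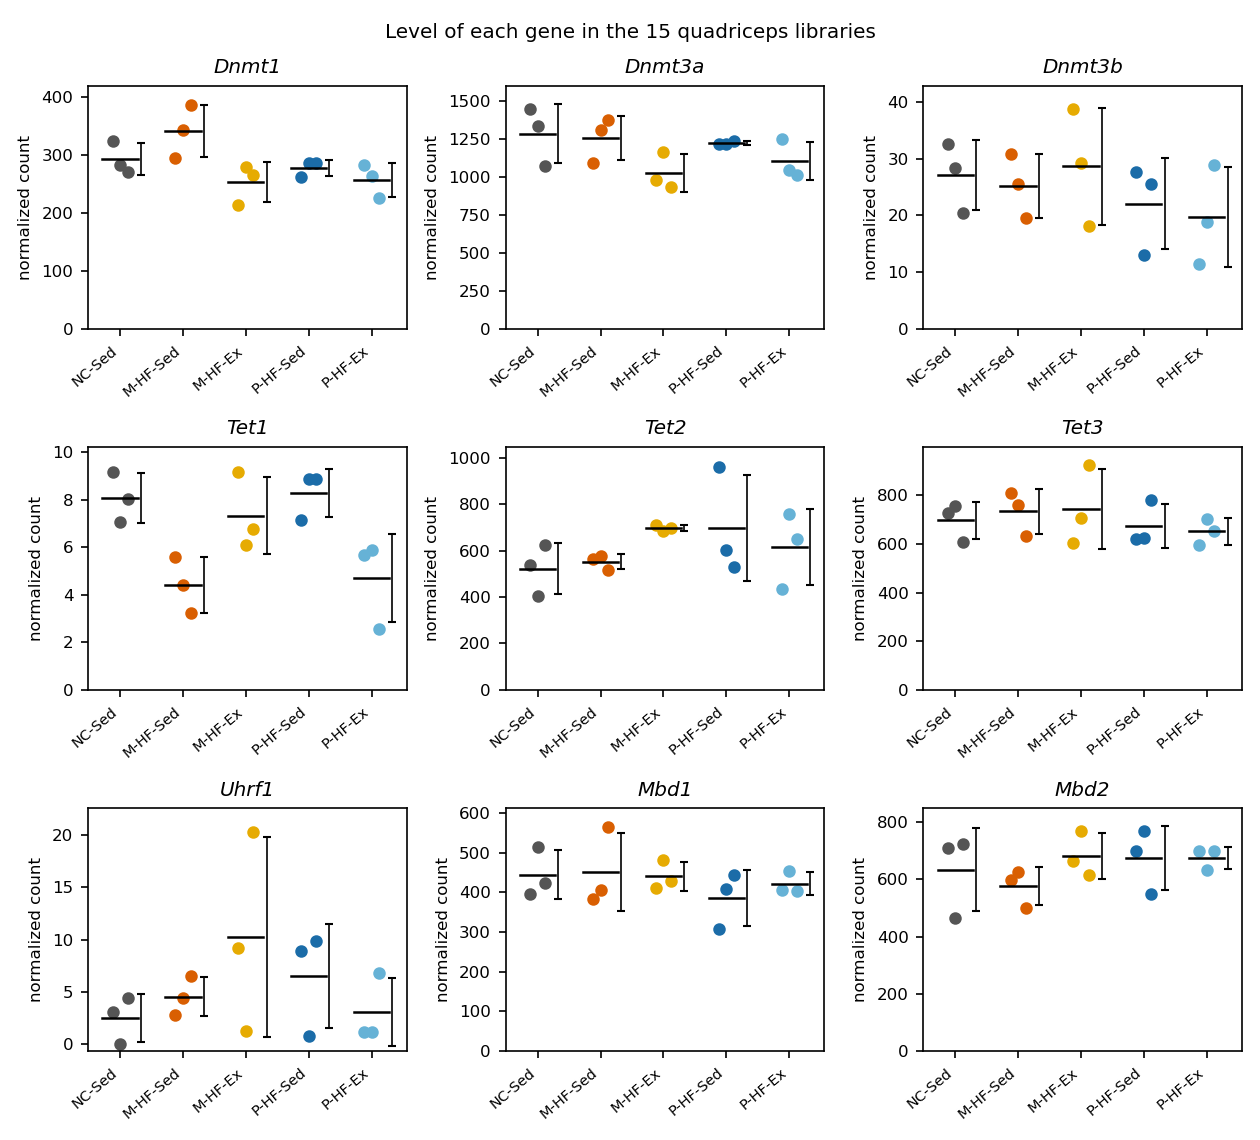
Normalized count of each gene in each of the 15 libraries, by group. Points are libraries (replicates 1 to 3 from left to right), black lines the group means and bars 1 SD. The axis starts at 0, with a small margin under 0 for Uhrf1, and the counts of Tet1 (3 to 11 reads per library), Uhrf1 (0 to 18) and Dnmt3b (10 to 38) are low. The Dnmt1 values of M-HF-Ex lie below those of M-HF-Sed, and the Tet2 values of M-HF-Ex lie above those of M-HF-Sed and NC-Sed.

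Differences between groups were tested with limma on log2(normalized count + 1) over 13499 genes, and adjusted p-values are Benjamini-Hochberg values over all of them. A maternal high-fat diet with a locked wheel was set against control first. The differences (M-HF-Sed minus NC-Sed) were 0.22 ± 0.14 (SE) for Dnmt1, -0.03 ± 0.14 for Dnmt3a, -0.10 ± 0.40 for Dnmt3b, 0.10 ± 0.22 for Tet2, 0.07 ± 0.16 for Tet3, 0.01 ± 0.17 for Mbd1 and -0.12 ± 0.17 for Mbd2. None of the 7 passed an adjusted p of 0.05 (limma), where 0% of all genes tested did. At an unadjusted p under 0.05 it was 0 of 7 against 4.04% of all genes. The groups did not overlap for 0 of 7, against 8.02%. When the 4 libraries with liver transcripts were left out, which leaves M-HF-Sed with 1 library assumed to vary like the other groups, the difference was -0.002 for Dnmt1, -0.19 for Dnmt3a and 0.29 for Tet3. With a liver score (the mean log2 level of the 12 liver genes) as a covariate and all libraries kept, it was 0.24 for Dnmt1. The interval of Dnmt3a, -0.32 to 0.26 (95%), leaves room for changes of that size either way. Without the filter Tet1, at 14 reads against 25, differed by -0.76 ± 0.47 (limma, unadjusted p = 0.126, adjusted p = 0.9).

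Exercise of the high-fat-fed dam gave the smallest p-value among these genes, that of Dnmt1. Relative to M-HF-Sed, the M-HF-Ex mean differed by -25.8% for Dnmt1, -18.4% for Dnmt3a, 26.3% for Tet2 and 18.8% for Mbd2. It differed by 13.4% for Dnmt3b, -2.46% for Mbd1 and 1.5% for Tet3. On the log2 scale Dnmt1, Dnmt3a and Tet2 differed by -0.43 ± 0.14 (95% interval -0.74 to -0.12), -0.29 ± 0.14 (-0.58 to -0.003) and 0.34 ± 0.22 (-0.14 to 0.81). Their adjusted p-values were 0.516, 0.516 and 0.563 (limma), so none passed, and 0% of all genes did. The unadjusted p from limma was 0.00942 for Dnmt1 and 0.0477 for Dnmt3a. These were the 2 of 7 under 0.05, against 9.54% of all genes, and both were lower, as were 5.33% of all genes. Dnmt1 and Tet2 had groups that did not overlap, or 2 of 7 where 17.2% of all genes did. Mbd2 differed by 0.25 ± 0.17, Dnmt3b by 0.13 ± 0.40, Tet3 by 0.01 ± 0.16 and Mbd1 by -0.02 ± 0.17. Of the 7, 4 differences were above 0 with a median of 0.01, against 50.4% and a median of 0.00 over all genes. Without M-HF-Ex replicate 1, 0 of the 7 were under an unadjusted 0.05 (743 of all genes, against 1288 with every library), and without M-HF-Sed replicate 3 it was 1 of the 7 (455 of all genes). Without the libraries with liver transcripts, which leaves M-HF-Sed replicate 1 alone in its group, the difference was -0.23 for Dnmt1 (limma, unadjusted p = 0.295), -0.10 for Dnmt3a and 0.20 for Mbd1. With the liver score as a covariate it was -0.45 for Dnmt1 (limma, unadjusted p = 0.025) and -0.22 for Dnmt3a. The M-HF-Ex libraries were also smaller (18457663 to 20139878 reads) than the M-HF-Sed libraries (22927662 to 25781465), and the part of depth in these differences was not tested.

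The exercised maternal group was then set against control. Dnmt3a was lower in M-HF-Ex than in NC-Sed by the mean (-20.1%), -0.32 ± 0.14 on the log2 scale (95% interval -0.61 to -0.03; limma, unadjusted p = 0.0328, adjusted p = 0.566). It was the only one of the 7 under an unadjusted 0.05, against 8.76% of all genes (3.85% under it and lower), and 0% of all genes passed the adjusted threshold. With 1 library left out the Dnmt3a difference ran from -0.45 to -0.23. Without NC-Sed replicate 1 or 2, 0 of the 7 were under it (911 and 469 of all genes, against 1183 with every library). The same held without M-HF-Ex replicate 1 or 3 (544 and 591), and without NC-Sed replicate 3 it was 2 of the 7 (2228). Tet2 was 33.4% higher, 0.44 ± 0.22 (95% interval -0.04 to 0.91; limma, unadjusted p = 0.0688, adjusted p = 0.585). Every M-HF-Ex value of Tet2 lay above every control value, and 10.3% of all genes had separate groups, 5.54% with M-HF-Ex the higher. Without NC-Sed replicate 2, the lowest Tet2 library, the difference was 0.27. Dnmt1 differed by -0.21 ± 0.14, Mbd2 by 0.13 ± 0.17, Tet3 by 0.08 ± 0.16, Dnmt3b by 0.04 ± 0.40 and Mbd1 by 0.00 ± 0.17, all with overlapping groups.

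A paternal high-fat diet with a sedentary dam gave no difference from control that passed. The 95% intervals were wide for Tet2 (-0.09 to 0.87) and Dnmt3b (-1.18 to 0.52). Tet2 was 33.5% higher in P-HF-Sed, 0.39 ± 0.22 on the log2 scale (limma, unadjusted p = 0.101, adjusted p = 0.92), and the difference was 0.14 without P-HF-Sed replicate 1. Dnmt3b differed by -0.33 ± 0.40, Mbd1 by -0.21 ± 0.17, Mbd2 by 0.10 ± 0.17, Dnmt1 by -0.07 ± 0.14, Dnmt3a by -0.06 ± 0.14 and Tet3 by -0.05 ± 0.16. None passed (limma, adjusted p), as 0% of all genes, and 0 of 7 were under an unadjusted 0.05 against 2.87% of all genes. All 7 overlapped between the groups, where 5.7% of all genes did not.

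Running of lean dams in the paternal arm was examined next, as P-HF-Ex minus P-HF-Sed. Dnmt3b differed by -0.18 ± 0.40, Tet2 by -0.17 ± 0.22, Dnmt3a by -0.15 ± 0.14 and Dnmt1 by -0.12 ± 0.14. None of these 4 passed (limma, adjusted p = 0.991 for each). Mbd1 differed by 0.14 ± 0.17, Tet3 by -0.04 ± 0.16 and Mbd2 by 0.02 ± 0.17. None of the 7 was under an unadjusted 0.05, against 3.76% of all genes, and 0% of all genes passed the adjusted threshold. No gene of the 7 had separate groups, against 10.6% of all genes. Against control, P-HF-Ex differed by -0.51 ± 0.40 for Dnmt3b, -0.21 ± 0.14 for Dnmt3a, -0.19 ± 0.14 for Dnmt1, 0.22 ± 0.22 for Tet2, 0.12 ± 0.17 for Mbd2, -0.10 ± 0.16 for Tet3 and -0.07 ± 0.17 for Mbd1. Again 0 of 7 were under an unadjusted 0.05, here against 13.7% of all genes, and 0% passed the adjusted threshold (limma). All 7 overlapped, where 20.4% of all genes did not.

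**Figure D3:**
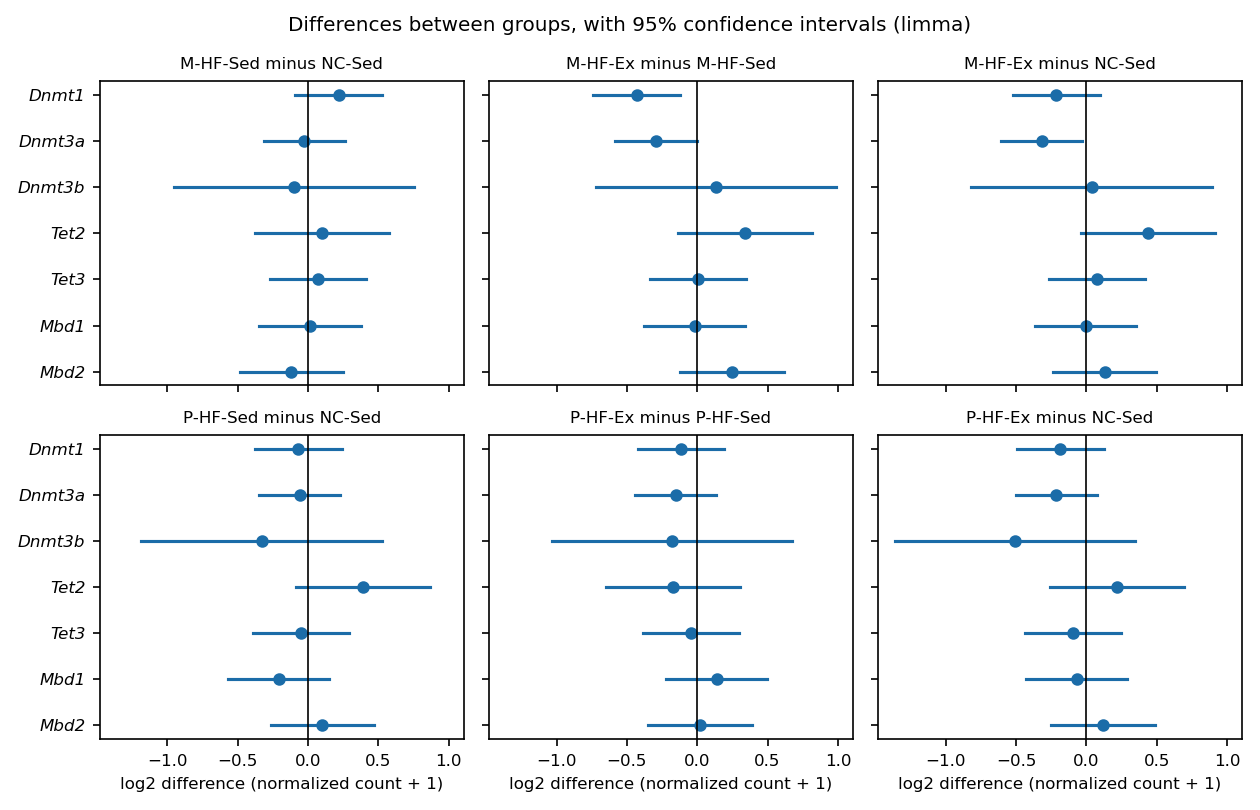
Difference in log2(normalized count + 1) for the 7 genes tested in 6 comparisons, with limma estimates as points and 95% confidence intervals as lines. Dnmt1 and Dnmt3a lie left of 0 in M-HF-Ex minus M-HF-Sed (-0.43 and -0.29), Tet2 lies right of 0 there (0.34), and the intervals of Dnmt3b are the widest.

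The exercise effects in the 2 arms were compared by the difference between them (maternal minus paternal). It was -0.31 ± 0.20 for Dnmt1 (limma, unadjusted p = 0.145) and 0.51 ± 0.32 for Tet2 (unadjusted p = 0.127), and between -0.16 and 0.31 for the other 5 genes. All 7 adjusted p-values were 0.9995 (limma). At an unadjusted p under 0.05 there were 0 of 7, against 1.8% of all genes. A test for any difference among the 5 groups gave its smallest p for Dnmt1 (limma, unadjusted p = 0.0606, adjusted p = 0.715), followed by Dnmt3a (unadjusted p = 0.14). Here too 0 of 7 were under an unadjusted 0.05, against 6.71% of all genes, and 0% of genes passed after adjustment in either test. In all 8 tests edgeR, DESeq2 and limma with voom weights on the recovered reads also called 0 of the 7. Over all genes, edgeR and voom called 0, whereas DESeq2 called 60 of 13479 in M-HF-Ex minus M-HF-Sed, 65 in P-HF-Ex minus NC-Sed, 18 in M-HF-Sed minus NC-Sed, 1 in P-HF-Ex minus P-HF-Sed and 186 in the test over the 5 groups.

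Of the 21 pairs among the 7 genes, correlations over the 15 libraries passed after adjustment for 1 pair by Pearson's r and 3 by Spearman's rho, all among Dnmt1, Dnmt3a and Tet2. The share of all gene pairs with values as far from 0 was not computed, so these pairs are not shown to be unusual among genes. Dnmt1 and Dnmt3a were high and low in the same libraries, with Pearson's r 0.755 (permutation p = 0.00092, adjusted over 21 pairs 0.0193) and Spearman's rho 0.789 (permutation p = 0.00083, adjusted 0.0174). The r was 0.684 without the 2 libraries farthest from the median of Dnmt1, 0.729 after group means were taken out and 0.756 without the 4 libraries with liver transcripts. Tet2 tended the other way. Its rho was -0.75 with Dnmt3a (permutation p = 0.002, adjusted 0.021) and -0.721 with Dnmt1 (permutation p = 0.00317, adjusted 0.0222), while its r values, -0.538 (permutation p = 0.0377, adjusted 0.236) and -0.455 (permutation p = 0.0885, adjusted 0.31), did not pass. Without the 2 libraries farthest from the median of Dnmt3a or Dnmt1 these r were -0.485 and -0.392, and without the libraries with liver transcripts -0.691 and -0.544. After group means were taken out they were -0.458 and -0.347. The permutations did not keep libraries within their groups. P-HF-Sed replicate 1, with the highest Tet2, stood apart from the rank order of the others. The same libraries were scaled together for all genes, so the values share that scaling. The first part of the title code, of unstated meaning, puts at most 4 libraries together, too few for a correlation within it.

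**Figure D4:**
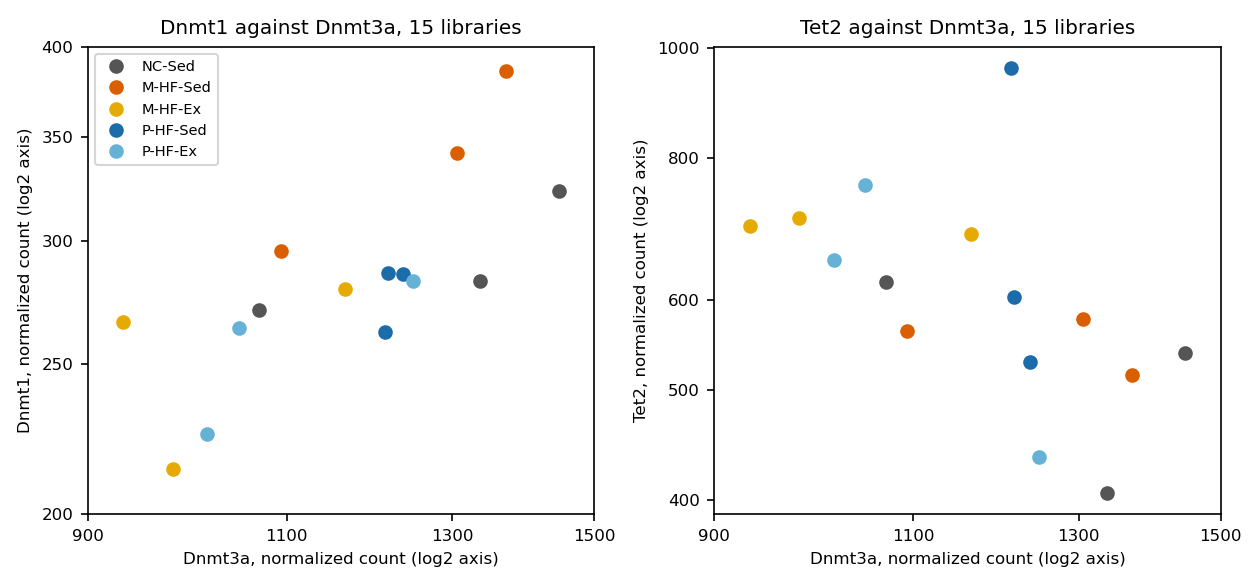
Normalized counts of Dnmt1 (left) and Tet2 (right) against Dnmt3a in the 15 libraries, on log2 axes, coloured by group. Dnmt1 goes up with Dnmt3a (Spearman's rho 0.789) and Tet2 goes down (rho -0.75), with P-HF-Sed replicate 1 above the others at a Tet2 value of 960.5.

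Mbd1 and Mbd2 had an r of -0.559 (permutation p = 0.0322, adjusted 0.236) and a rho of -0.354 (permutation p = 0.195, adjusted 0.584). The r was -0.445 without the 2 libraries farthest from the median of Mbd1, -0.576 after group means were taken out and 0.032 without the 4 libraries with liver transcripts. The genes most like each of the 7 in pattern over the 15 libraries were then looked up among 13492 others. For Dnmt1 they were H2afz, the histone variant H2A.Z (r = 0.90), and Sae1, a subunit of the SUMO-activating enzyme (r = 0.892). For Dnmt3a they were Mmp15, a membrane metalloproteinase (r = 0.959), and Ank1, the ankyrin of red cells and muscle (r = 0.93). Tet2 was most like Tspyl4 (r = 0.911) and Tmem67, a protein of the primary cilium (r = 0.883), and Tet3 most like Axin2, a target and inhibitor of Wnt signalling (r = 0.822), and the collagen gene Col5a1 (r = 0.817). Mbd1 was most like Surf4 (r = 0.921) and Cndp2 (r = 0.901), Mbd2 most like the helicase Ddx1 (r = 0.968) and Epm2a, the glycogen phosphatase laforin (r = 0.965), and Dnmt3b most like Fbxo46 (r = 0.877) and Gm45293 (r = 0.724). These are the highest of many values and carry no test.

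Further genes of the pathway, 78 in 7 lists, were examined in the same fits, and 0 of the 66 that were tested passed in any comparison (limma, adjusted p). The genes named next are among the 2 with the smallest p over the 5 groups in their list. Among the readers outside the 9 genes, Uhrf2 had 261 ± 56.2 normalized counts in NC-Sed, 254 ± 60.7 in M-HF-Sed and 356 ± 87.2 in M-HF-Ex, and 319 ± 40.7 in P-HF-Sed and 363 ± 57.4 in P-HF-Ex (SD, n = 3; limma, unadjusted p = 0.0993, adjusted p = 0.715). Its difference between M-HF-Ex and M-HF-Sed was 0.48 ± 0.23 on the log2 scale and did not pass.

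Of the NuRD subunits and MBD1 partners, the partners of the readers, 13 of 13 were tested. Gatad2b, which links MBD2 to the rest of the complex, stood at 1973 ± 217 in P-HF-Ex and 1760 ± 253 in M-HF-Ex, against 1337 ± 325 in NC-Sed, 1388 ± 261 in M-HF-Sed and 1458 ± 104 in P-HF-Sed (limma, unadjusted p = 0.0286, adjusted p = 0.715). Chd3, a remodeller of the complex, had 369 ± 114 in M-HF-Sed, 326 ± 57.5 in NC-Sed and 303.5 ± 46.4 in P-HF-Sed. It had 291 ± 42.7 in M-HF-Ex and 243 ± 36.9 in P-HF-Ex (limma, unadjusted p = 0.134, adjusted p = 0.715). Its highest library, at 499, was M-HF-Sed replicate 2, the library with the most liver transcripts. Of the regulators and cofactors of methyltransferases and TETs, 5 of 10 were tested. Usp7, which deubiquitinates DNMT1 and UHRF1, was at 1635 ± 97.3 in P-HF-Ex, 1503 ± 16.7 in M-HF-Ex and 1472 ± 259 in P-HF-Sed. It was at 1292 ± 260.4 in NC-Sed and 1278 ± 138.8 in M-HF-Sed (limma, unadjusted p = 0.1405, adjusted p = 0.716). Cxxc5, a CpG-binding regulator of TET2, was at 319.9 ± 42.2 in NC-Sed, 319.6 ± 8.36 in M-HF-Sed and 273 ± 27.9 in P-HF-Sed. In P-HF-Ex it was at 246 ± 89.3 and in M-HF-Ex at 234 ± 41.5 (limma, unadjusted p = 0.143, adjusted p = 0.717). Of the base excision and Gadd45 genes of active demethylation, 10 of 10 were tested. The DNA ligase gene Lig3 had 596 ± 32.8 in P-HF-Ex, 558 ± 49.7 in M-HF-Ex and 521 ± 50.4 in P-HF-Sed. It had 490 ± 37.3 in M-HF-Sed and 473 ± 8.66 in NC-Sed (limma, unadjusted p = 0.0556, adjusted p = 0.715). The stress response gene Gadd45a had 920.5 ± 202 in P-HF-Ex, 765 ± 321 in M-HF-Ex and 622 ± 99.2 in P-HF-Sed. It had 591 ± 35.1 in M-HF-Sed and 542 ± 128 in NC-Sed (limma, unadjusted p = 0.0822, adjusted p = 0.715).

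Methyl donor metabolism, which makes and uses the S-adenosylmethionine that the writers need, had 13 of 13 genes tested and 4 higher in M-HF-Sed than in NC-Sed at an unadjusted p under 0.05, where 2.64% of all genes were under it and higher. In M-HF-Ex minus M-HF-Sed 3 of the 13 were lower by the same rule, against 5.33% of all genes. The leading 2 were Gnmt, at 542 ± 590 in M-HF-Sed against 102 ± 83.5 in NC-Sed, and Nnmt, at 55.7 ± 58.8 against 14.1 ± 5.15. Both are abundant in liver, and both were highest in M-HF-Sed replicate 2 (1209 and 123), the library with the most liver transcripts. The part of liver transcripts in these differences, or in those of the other genes among the 4, was not tested. The list of 2-oxoglutarate and its antagonists covers enzymes that make or use the TET cosubstrate or its antagonists, and 11 of 11 were tested. Sdhb, a subunit of succinate dehydrogenase (7888 ± 623 in M-HF-Sed, 6769 ± 499.8 in M-HF-Ex), and Idh2, a mitochondrial isocitrate dehydrogenase (14890 ± 1167 and 12790 ± 3078) led with unadjusted p of 0.209 and 0.305 (limma). Of the proliferation list, 5 of 12 were tested, with Mcm2, a part of the replicative helicase, at 382 ± 112 in NC-Sed and 238 ± 49 in M-HF-Ex, and Mcm6 at 64.4 ± 14.7 and 71.6 ± 7.49. Over the 5 groups their unadjusted p was 0.0932 and 0.301 (limma).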

How the data were processed

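Per the labels' protocols, total RNA was depleted of ribosomal RNA with a stranded kit and read as 100 bp single ends. The submitters' processing notes name STAR 2.5.2b, featureCounts 1.5.2, DESeq2 1.11.8 and build mm10. The deposited table holds a normalized signal per gene and library, which the values show to be counts divided by 1 factor per library. In every library 100% of values were whole multiples of the smallest (tolerance 0.001), so whole reads were recovered. Genes were matched to GENCODE M21 (GRCm38) by Ensembl identifier (50462 of 50686). No source used here states the strand setting of the counting, and genes on the opposite strand lie over Dnmt3a, Dnmt3b, Tet2 and Tet3 (mean at most 8.92 normalized counts).

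Samples were grouped by their group label, with replicates numbered in accession order. Within groups, chi-square values of 17.6 to 87.8 per degree of freedom set every pair of libraries apart. Groups were compared with limma 3.58.1 (R 4.3.3, with a trend) on log2(normalized count + 1) in 1 fit of the 15 libraries, over the 13499 genes whose mean reached 10. The scale understates changes of low genes, and 37187 genes were not tested. Alternatives were other pseudocounts, filters, scalings and covariates, edgeR 4.0.16, DESeq2 1.42.0 and voom, and leaving out libraries. The fit was tested on simulated data. Correlations used 100000 permutations. Exon lengths are the union of exons. All 9 genes are named. Of other lists, genes that passed are named, and otherwise the 2 with the smallest p over the 5 groups, besides genes shown for their level per length. Values of 1 gene of the list of other readers are not reported here. For genes of like pattern the 2 highest r per gene are named. The genes and lists were chosen with earlier results of these data known.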

Additional observations from a re-analysis of the deposited data

Results flagged for a closer look

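Tet1 differed between exercised and sedentary groups in opposite directions in the maternal and paternal arms. Every M-HF-Ex library (6.07 to 9.16 normalized counts) lay above every M-HF-Sed library (3.24 to 5.59), and every P-HF-Ex library (2.55 to 5.89) lay below every P-HF-Sed library (7.13 to 8.89). Of all genes tested, 17.2% and 10.6% had groups that did not overlap in these comparisons, in either direction. These shares are for each comparison alone and for genes above the filter, which Tet1 was not. The share of genes with opposite separation in both arms was not computed. The difference of the 2 effects was 1.39 ± 0.67 on the log2 scale in the fit without a filter on low values, and it did not pass (limma, unadjusted p = 0.0546, adjusted p = 0.92). The values rest on 3 to 11 reads per library, and groups of 3 libraries held 13 to 28 reads. The CV of Tet1 over the 15 libraries was 31.8%, where counting such few reads gives 38.7%. The part of counting error in the opposite directions was not tested.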

How the results depend on the processing

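Under 29 alternative settings 0 of the 7 genes passed in any of 228 recomputed counts. Over all 13499 genes some settings called more than 0, with 109 in M-HF-Ex minus M-HF-Sed without M-HF-Sed replicate 1, 16 there and 11 in P-HF-Ex minus P-HF-Sed with the title code covariate, up to 186 with DESeq2 in the test over the 5 groups and at most 3 in any other setting. Among the 7 genes the lowest adjusted p was 0.177 (limma; 0.177 to 1 over the alternatives of this result), for Dnmt1 in M-HF-Ex minus M-HF-Sed without M-HF-Sed replicate 1 (-0.53). Of 1400 recomputed differences, 1355 moved by no more than 1 standard error and 112 changed sign, none of them a called one. The difference of Dnmt1 between M-HF-Ex and M-HF-Sed kept its sign in all 29, from -0.53 to -0.23, and was -0.35 (unadjusted p = 0.103, limma) with a covariate for the title code's first part, which rests on M-HF-Ex replicate 3. With that covariate, M-HF-Ex minus M-HF-Sed was -0.42 for Dnmt3a (-0.29 in the main fit), -0.44 for Dnmt3b (0.13), 0.34 for Tet3 (0.01) and 0.10 for Mbd2 (0.25). That covariate could not be fitted for the maternal groups against control. Without the 4 libraries with liver transcripts, differences that moved by more than 1 standard error beside those in the report were Tet2 -0.04, Mbd1 0.06 and Mbd2 -0.14 in P-HF-Sed minus NC-Sed, Tet2 0.08 in P-HF-Ex minus P-HF-Sed, Mbd2 -0.08 in M-HF-Ex minus NC-Sed and -0.09 in P-HF-Ex minus NC-Sed, and Dnmt1 -0.07, Dnmt3a 0.06 and Mbd1 0.21 in the difference between arms. Scaling by library totals moved the median of all genes by 0.10 in M-HF-Ex minus M-HF-Sed and by 0.19 in the difference between arms. Another scaling turned the sign of Mbd1 in the maternal comparisons and the difference between arms, of Dnmt1, Dnmt3a and Tet3 in P-HF-Sed minus NC-Sed, of Mbd2 in P-HF-Ex minus P-HF-Sed and of Dnmt3a in the difference between arms. No paired analysis was possible because the labels give no replicate numbers and those used are in accession order. Tet1, Uhrf1 and Dnmt3b had few reads, and none of their differences passed. Over all libraries their CVs were 31.8%, 98.2% and 30.7%, where counting alone gives 38.7%, 43% and 20%. The part of depth in these results was not tested.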

Other observations

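Of the summed signal per length of the methyltransferases, Dnmt1 made up 36.4% ± 1.14 in M-HF-Sed, 33.8% ± 3.69 in M-HF-Ex, 33.2% ± 1.75 in P-HF-Ex, 32.6% ± 1.34 in P-HF-Sed and 32.6% ± 2.12 in NC-Sed (SD, n = 3 each). Dnmt3a made up 59.6% ± 0.843 in M-HF-Sed and between 60.7% and 63.7% in the other groups. Dnmt3b made up 5.55% ± 2.17 in M-HF-Ex and between 3.74% and 4.31% in the other groups, with single libraries from 1.92% to 7.94%. None of these shares was tested. Tet2 was at 49.6% ± 10.2 of the summed TET signal in P-HF-Sed, 48.2% ± 5.43 in M-HF-Ex, 47.5% ± 5.03 in P-HF-Ex, 42.6% ± 2 in M-HF-Sed and 42.1% ± 7.73 in NC-Sed. Of the genes with enough reads, Dnmt1 was steadier within groups than most genes of its level, with an SD on the log2 scale of 0.16 against a median of 0.22 for 2516 such genes, of which 22.3% had a lower one. The SD was 0.16 for Dnmt3a (median of similar genes 0.17), 0.20 for Tet3 (0.18), 0.21 for Mbd1 (0.19), 0.23 for Mbd2 (0.18) and 0.50 for Dnmt3b (0.48).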
